A study of Mus musculus with 6 samples.

Results

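Elastic fibres give tissue its recoil. They are built from a core of cross-linked elastin that is laid down on a scaffold of fibrillin microfibrils. Fibulins sit between the scaffold and the core, latent TGF-beta binding proteins store the growth factor on the microfibrils, and lysyl oxidases cross-link the elastin. Fibroblasts and smooth muscle cells are the main makers of these proteins. The 10 genes described here are the fibrillins Fbn1 and Fbn2, elastin (Eln), the fibulins Fbln1, Fbln2, Fbln5, Efemp1 (fibulin-3) and Efemp2 (fibulin-4), the latent TGF-beta binding protein Ltbp1 and lysyl oxidase (Lox). Members were taken by gene symbol. Of the 45037 probe sets on the arrays that are not controls, 18 carry the symbol of a member, and they cover 8 of the 10 genes. Fbn1 and Efemp2 were not analysed here, since no probe set was annotated to either symbol. Each probe set is read out from several short probes against the same transcript.

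Expression was measured on 6 Affymetrix arrays from immortalized mouse embryonic fibroblasts, which are connective tissue cells taken from embryos. All cells were PCAF-/-, and 3 arrays came from PCAF-/-;GCN5-/- cells and 3 from PCAF-/-;GCN5+/- cells. GCN5 and PCAF are related histone acetyltransferases, and the study asked which genes depend on them. Per the design, cells with a conditional GCN5 allele received a retrovirus with Cre recombinase, which removes the conditional part of the gene, or the vector alone; which array had which virus is not labelled, so GCN5-/- was read as Cre and GCN5+/- as vector, and virus and genotype cannot be told apart. Puromycin selection was used in both groups. Each genotype had duplicate RNAs of line A, here called A1 and A2, and 1 RNA of line B, which was immortalized independently. No more than 2 lines therefore stand behind any comparison, and only 1 where line A is taken alone. The spread between A1 and A2 may be technical.

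Kat2a, the gene of GCN5, had log2 signals of 7.97, 7.85 and 7.75 in GCN5-/- A1, A2 and B, against 9.31, 10.07 and 11.51 in the matching GCN5+/- arrays at probe set 1422972_s_at. The change was -2.44 ± 0.37 there (log2, SE; limma adjusted p = 0.00864) and -0.75 ± 0.13 at 1422971_at (adjusted p = 0.0157). At 1426783_at it was 0.18 ± 0.16, which is no call (adjusted p = 0.575), but this probe set was higher in the GCN5-/- arrays of line A, by 0.56 and 0.38 (0.47 ± 0.09 within line A, limma adjusted p = 0.0232), and lower in that of line B (-0.41). At this probe set the line A arrays go against their labels. Whether a probe set lies inside the deleted part was not analysed here. Of 7 fibroblast marker genes, 7 passed the level filter over the 6 arrays. Thy1, a surface glycoprotein, was an exception within line A, with log2 signals between 6.02 and 6.21 there and of 8.60 in GCN5-/- and 9.54 in GCN5+/- cells of line B. In bulk RNA, fewer cells of a type and less RNA per cell cannot be told apart.

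The test was limited to probe sets with a mean log2 signal of 6.80 or more, the 40th percentile. Of the 18 probe sets, 16 passed, and at least 1 for each of the 8 genes. The exceptions were 1438375_at of Fbln2 and 1437903_at of Lox. An adjusted p under 0.05 was called. The plot of log2 signal by array shows all 18.

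**Figure D1:**
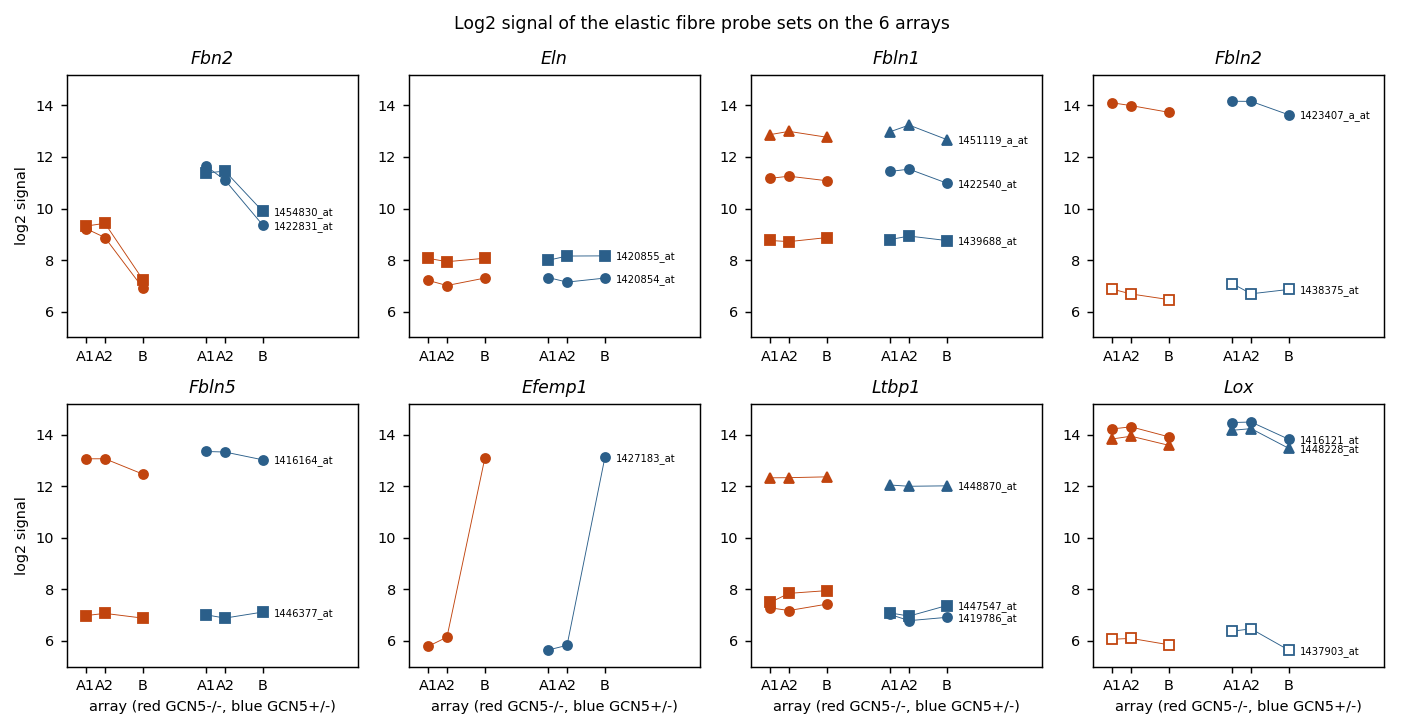
Log2 signal (vertical axis) of each probe set on each array (horizontal axis), 1 panel per gene, with GCN5-/- arrays in red on the left and GCN5+/- arrays in blue on the right. Marker shapes separate the probe sets of a gene and open markers did not pass the level filter; Fbn2 is lower in every GCN5-/- array than in its matching GCN5+/- array, and Efemp1 lies between 5.64 and 6.14 on the line A arrays and near 13.1 on both line B arrays.

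Promoter sequences from RefSeq (GRCm38.p6) were matched by symbol for 7 of the 10 members; Fbn2, Eln and Lox had no entry. Shown are Fbln5 and Ltbp1, the genes called between the genotypes that had an entry, and Efemp1, the gene with the largest line difference. Each is the 199 bases from 250 to 52 bases before the annotated start, which lie outside the annotated gene, written 5′ to 3′ on the strand of the gene. The stretches are chr12:101819171-101819369 on the minus strand for Fbln5, chr17:75005279-75005477 on the plus strand for Ltbp1 and chr11:28852955-28853153 on the plus strand for Efemp1. Capitals mark matches on either strand to 4 motifs. The TATA box was searched as TATAAA. The GC box was searched as GGGCGG. The CCAAT box was searched by the letters of its name. For the AP-1 site the search used TGANTCA, where N is any base.

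Fbln5: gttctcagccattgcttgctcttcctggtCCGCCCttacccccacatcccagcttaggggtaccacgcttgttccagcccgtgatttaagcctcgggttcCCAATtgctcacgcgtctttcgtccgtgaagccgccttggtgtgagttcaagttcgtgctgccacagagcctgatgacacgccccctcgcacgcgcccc
Ltbp1: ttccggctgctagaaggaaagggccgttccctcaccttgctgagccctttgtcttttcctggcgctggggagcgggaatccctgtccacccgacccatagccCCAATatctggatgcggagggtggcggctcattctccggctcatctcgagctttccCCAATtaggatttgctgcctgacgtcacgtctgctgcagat
Efemp1: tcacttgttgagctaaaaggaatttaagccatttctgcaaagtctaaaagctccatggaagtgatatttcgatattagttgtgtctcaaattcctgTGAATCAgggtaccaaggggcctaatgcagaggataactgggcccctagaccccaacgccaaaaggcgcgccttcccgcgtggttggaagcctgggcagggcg

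The Fbln5 stretch held 1 GC box and 1 CCAAT box, and the Ltbp1 stretch 2 CCAAT boxes. The Efemp1 stretch held 1 match to TGANTCA, with A at the open base, so it matches the search letters only in this loose form. None of the 3 held a TATA box between 250 and 52 bases before the start. Bases nearer to the start were not searched, so a TATA box there would not be seen. Over the same 199 bases of 32851 promoters, 24.4% held a GC box, 28.2% a CCAAT box, 5.6% a match to TGANTCA and 9.1% a TATA box. The number of CG dinucleotides was 14 in Fbln5, 11 in Ltbp1 and 7 in Efemp1, and the median over all promoters was 4. As many or more were found in 19.6%, 26.5% and 38.1% of all promoters over the same stretch. A match is a run of letters and not a measured site, and no binding or methylation was measured in these cells.

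In GCN5-/- arrays the fibrillin gene Fbn2 was about 5-fold lower, Fbln5 was lower by less, and Ltbp1 was higher. Eln, Fbln1, Fbln2, Efemp1 and Lox did not pass the test between the genotypes. Of the 16 probe sets tested, 3 fell (4.31% of all tested probe sets fell) and 2 rose (4.2% of all rose). The 5 belong to 3 genes. The median log2 change over the 16 was -0.08, against -0.01 over all 27022 tested probe sets.

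Fbn2 encodes fibrillin-2, the fibrillin that in mammals is made mostly before birth and during tissue growth. Probe set 1454830_at had log2 signals of 9.32, 9.43 and 7.24 in GCN5-/- A1, A2 and B, against 11.38, 11.45 and 9.88 in the GCN5+/- arrays. Probe set 1422831_at had 9.22, 8.87 and 6.92 in the GCN5-/- arrays, against 11.64, 11.10 and 9.35 in the GCN5+/- arrays. The genotypes did not overlap at either probe set, but the highest GCN5-/- arrays, both of line A, came close to the GCN5+/- array of line B. The change was -2.24 ± 0.13 at 1454830_at (log2, SE; limma adjusted p = 0.000115) and -2.36 ± 0.16 at 1422831_at (limma adjusted p = 0.000212), which are 4.73-fold and 5.14-fold lower levels. Both probe sets were lower in all 3 matched pairs. The differences were -2.06, -2.03 and -2.64 in pairs A1, A2 and B at 1454830_at and -2.42, -2.23 and -2.43 at 1422831_at. Without a line term the changes had the same size but limma adjusted p-values of 0.314 and 0.343. In that fit the line difference counts as error. With line as a random block 1422831_at had an adjusted p of 0.0541.

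Ltbp1 encodes a protein that binds latent TGF-beta and anchors it to microfibrils. Probe set 1448870_at had log2 signals of 12.32, 12.33 and 12.36 in the GCN5-/- arrays, against 12.04, 12.00 and 12.01 in the GCN5+/- arrays. Each genotype lay in a narrow band and the 2 bands did not overlap. It rose by 0.32 ± 0.06 (log2, SE; limma adjusted p = 0.015). Probe set 1447547_at had 7.49, 7.84 and 7.95 in the GCN5-/- arrays, against 7.08, 6.96 and 7.37 in the GCN5+/- arrays, again with no overlap, and rose by 0.62 ± 0.12 (limma adjusted p = 0.0177). Probe set 1419786_at of the same gene had 7.28, 7.17 and 7.42 against 7.02, 6.78 and 6.91. Its groups did not overlap either, and its change of 0.39 ± 0.10 was not called (limma adjusted p = 0.0595; 0.0383 with the replicate block and 0.0435 after quantile normalization). With no line term both calls were lost (adjusted p = 0.243 at 1447547_at and 0.135 at 1448870_at). The call at 1447547_at was lost with line as a random block (0.0603), and that at 1448870_at with averaged line A duplicates (0.112) and without the variance trend (0.0514). Without any 1 of GCN5-/- A2, GCN5+/- A1 and GCN5+/- A2 neither of the 2 was called (adjusted p between 0.0594 and 0.0751).

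Fbln5 encodes fibulin-5, which in mice is needed to assemble elastin on microfibrils. Probe set 1416164_at had log2 signals of 13.06, 13.06 and 12.47 in the GCN5-/- arrays, against 13.35, 13.32 and 13.02 in the GCN5+/- arrays. It was lower in each GCN5-/- array than in its pair, yet the groups overlapped, as the line A arrays of GCN5-/- cells lay just above the GCN5+/- array of line B. It fell by 0.37 ± 0.06 (log2, SE; limma adjusted p = 0.0143). The call was lost with no line term (adjusted p = 0.536), with line as a random block (0.15), with averaged line A duplicates (0.0773), without the variance trend (0.0575), without GCN5-/- A2 (0.0502) and without GCN5+/- A1 (0.0597). The other probe set, 1446377_at, lay between 6.88 and 7.12 on the 6 arrays, near the filter level of 6.80. Its change of -0.03 ± 0.10 was not called (limma adjusted p = 0.909). The mean of both probe sets changed by -0.20 ± 0.09 (limma adjusted p = 0.186), so the Fbln5 result rests on 1 probe set. The same mean over probe sets gave -2.30 ± 0.11 for Fbn2 (limma adjusted p = 1.08e-05) and 0.44 ± 0.08 for Ltbp1 (limma adjusted p = 0.0108).

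**Figure D2:**
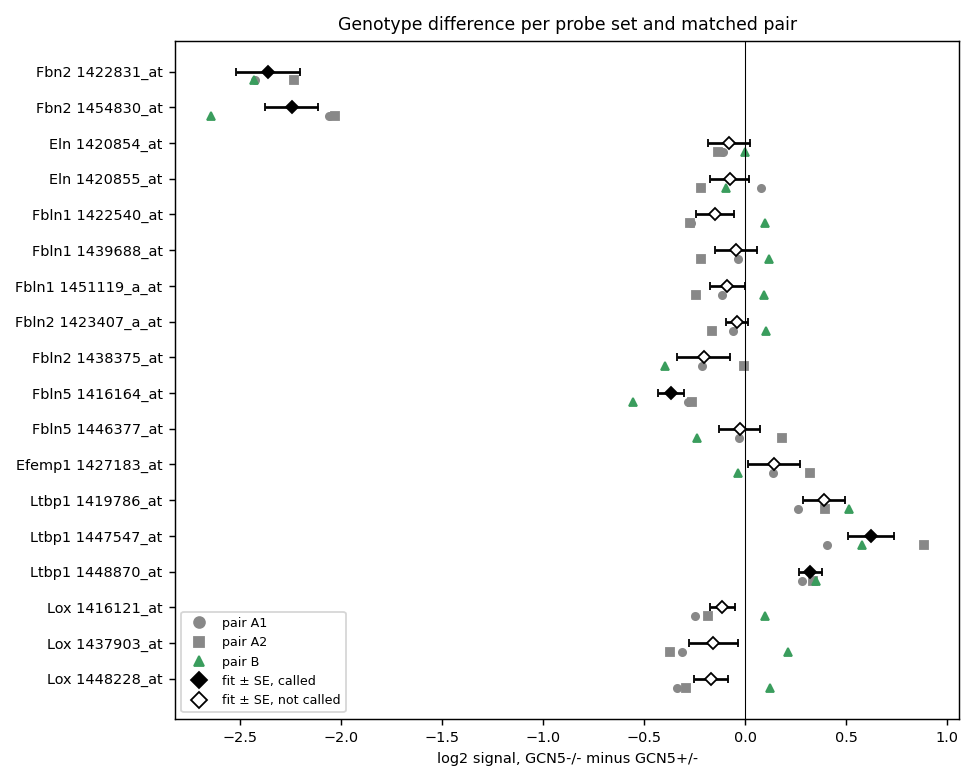
Difference in log2 signal, GCN5-/- minus GCN5+/- (horizontal axis), for each probe set. Diamonds are the fit with its standard error, filled where the adjusted p was under 0.05, and small markers are the 3 matched pairs; the 2 probe sets below the level filter come from the fit over all probe sets and have no call. Both Fbn2 probe sets lie below -2, and the 3 Lox probe sets have pair B on the other side of 0 from pairs A1 and A2.

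The probe sets of elastin itself showed little change. Probe set 1420855_at of Eln had log2 signals of 8.07, 7.94 and 8.07 in the GCN5-/- arrays, against 7.99, 8.16 and 8.16 in the GCN5+/- arrays. Probe set 1420854_at had 7.21, 7.01 and 7.30, against 7.32, 7.14 and 7.30. The groups overlapped at both. The changes of -0.08 ± 0.10 at each were not called (limma adjusted p = 0.699 and 0.701). All signals of 1420854_at lay below the array medians of 7.40 to 7.45 and near the filter level of 6.80, which limits what its flat reading can show.

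Fbln1 and Fbln2, secreted fibulins that bind fibronectin, laminins and elastin-associated proteins, did not pass the test between the genotypes. At 1423407_a_at of Fbln2 the GCN5-/- arrays had log2 signals of 14.10, 13.99 and 13.73, against 14.16, 14.16 and 13.63 in GCN5+/- (change -0.04 ± 0.05, limma adjusted p = 0.706). The 3 Fbln1 probe sets changed by -0.15 ± 0.10, -0.05 ± 0.10 and -0.09 ± 0.09 (limma adjusted p = 0.394, 0.84 and 0.604). All 4 were lower in pairs A1 and A2 and higher in pair B. The Fbln2 probe set below the level filter, 1438375_at, had a change of -0.21 ± 0.13 in the fit over all probe sets (limma adjusted p = 0.5). It did not share that pattern, with differences of -0.22, -0.007 and -0.40 in pairs A1, A2 and B.

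Lox, the copper enzyme that starts the cross-linking of elastin and collagen, differed in sign between the lines. Probe set 1416121_at had log2 signals of 14.22, 14.30 and 13.91 in GCN5-/- A1, A2 and B, against 14.47, 14.49 and 13.82 in the GCN5+/- arrays. Probe set 1448228_at had 13.83, 13.94 and 13.58, against 14.17, 14.23 and 13.46. Both were lower in the GCN5-/- arrays of line A and slightly higher in that of line B, and the probe set below the level filter, 1437903_at, had the same signs (-0.31, -0.37 and 0.21). Over both lines the changes of -0.11 ± 0.06 and -0.17 ± 0.08 were not called (limma adjusted p = 0.328 and 0.267). Within line A they were -0.22 ± 0.04 and -0.32 ± 0.05 and were called (limma adjusted p = 0.0146 and 0.00877). The difference between the lines, 0.32 ± 0.07 and 0.44 ± 0.08, was not called after adjustment (limma adjusted p = 0.215 and 0.161; unadjusted p = 0.00168 and 0.000919).

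No probe set of the group was called for a genotype effect that differs between the lines: limma called 0 of 16, and 0.0481% of all tested probe sets. At an unadjusted p under 0.05 there were 6 of 16, against 7.66% of all tested probe sets. These were both tested Lox probe sets, 1422540_at of Fbln1, 1423407_a_at of Fbln2, 1416164_at of Fbln5 and 1454830_at of Fbn2. This test has 2 residual degrees of freedom, both from the line A duplicates. At Fbln5 the difference between the lines was -0.28 ± 0.08 (limma adjusted p = 0.406), with a larger fall in line B. At 1454830_at of Fbn2 it was -0.60 ± 0.20 (limma adjusted p = 0.476), and at 1422831_at it was -0.11 ± 0.35 (limma adjusted p = 0.999). Within line A alone, 7 of the 16 were called, 2 higher and 5 lower, beside 8.59% of all tested probe sets. The 7 are the 5 above and the 2 Lox probe sets.

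In line B, Fbn2 was about 4-fold lower than in line A, and Lox, Fbln2 and Fbln5 were lower by 0.42 to 0.52 on the log2 scale. Efemp1 had a high signal in line B and one below the level filter in line A. Of the other 15 probe sets tested, limma called 7, each with a lower signal in line B, where 23.1% of all tested probe sets were called in either direction. The median difference of all 16 tested was -0.14, against 0.02 over all tested probe sets. Line B minus line A compares a pair of cell lines and so has no replicate of the line itself.

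Efemp1 encodes fibulin-3, a matrix glycoprotein of basement membranes and vessel walls. Its probe set 1427183_at had log2 signals of 13.09 and 13.13 in line B, against 5.78, 6.14, 5.64 and 5.82 in line A. The line A values lie below the level of the filter, so the probe set entered the test only through line B, and its line difference is given as a description with no test. Against the filter level, the mean signal of line B was at least 79.7-fold higher. GCN5-/- minus GCN5+/- was 0.14, 0.32 and -0.03 for the matched arrays A1, A2 and B, and the change of 0.14 ± 0.13 was not called (limma adjusted p = 0.568).

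Fbn2 had line differences of -1.83 ± 0.14 at 1454830_at and -2.08 ± 0.17 at 1422831_at (log2, SE; limma adjusted p = 8.23e-05 and 0.000103). At 1454830_at it was -2.13 in GCN5-/- cells and -1.53 in GCN5+/- cells, and at 1422831_at -2.13 and -2.02. The line difference and the genotype difference were of similar size at this gene, so that the GCN5-/- array of line B was the lowest of the 6 and the GCN5+/- arrays of line A were the highest. At 1422831_at these were 6.92 and 11.64.

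Lox was lower in line B by 0.51 ± 0.07 at 1416121_at and by 0.52 ± 0.09 at 1448228_at (limma adjusted p = 0.00137 and 0.00463). Fbln5 had a line difference of -0.45 ± 0.07 at 1416164_at (limma adjusted p = 0.00243) and Fbln2 one of -0.42 ± 0.06 at 1423407_a_at (limma adjusted p = 0.00146). For Lox and Fbln2 the difference was smaller among GCN5-/- arrays (-0.35, -0.30 and -0.32) than among GCN5+/- arrays (-0.66, -0.74 and -0.53). For Fbln5 it was larger, -0.59 against -0.31. Fbln1 was near the threshold, with -0.30 ± 0.09 at 1451119_a_at (limma adjusted p = 0.0487) and -0.32 ± 0.10 at 1422540_at (limma adjusted p = 0.0552), and the call at 1451119_a_at was lost in 7 of 12 alternative settings. Eln had 0.13 ± 0.11 and 0.08 ± 0.10 and was not called (limma adjusted p = 0.463 and 0.65). Ltbp1 had differences between 0.01 and 0.32 and none of its 3 probe sets was called (limma adjusted p between 0.104 and 0.902).

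**Figure D3:**
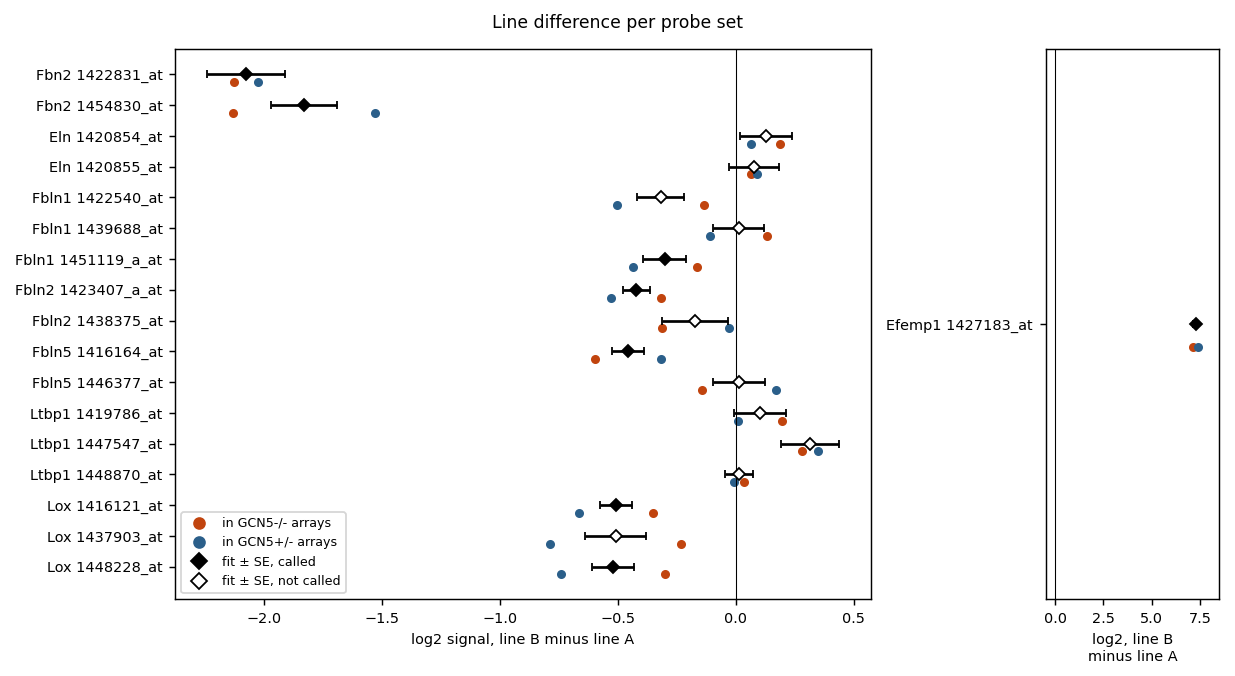
Difference in log2 signal, line B minus line A (horizontal axis), for each probe set, with Efemp1 in a panel of its own. Diamonds are the fit with its standard error, filled where called, and dots are the difference within GCN5-/- arrays (red) and within GCN5+/- arrays (blue); the 2 probe sets below the level filter come from the fit over all probe sets and have no call. Efemp1, whose line A level lies below the filter, is at 7.27 and is shown as a description, and both Fbn2 probe sets lie near -2.

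The genes closest to Fbn2 in their pattern over the 6 arrays were Nagk, Metrnl, Dnajb6, Erbb2 and Atxn7l3b, with Pearson correlations between 0.994 and 0.999 to 1454830_at. Those closest to Efemp1 were Asb4, Fam189b, Gfod1, Fzd6 and Msln, with correlations between 0.998 and 0.999. With 6 arrays from 2 lines and 2 genotypes such values are common: 226 genes had a correlation over 0.95 with Fbn2 and 575 with Efemp1. The points share the lines, so these values are a description. Line differences of the Efemp1 group were between 1.49 for Gfod1 and 4.66 for Msln on the log2 scale. The Fbn2 group moved far less than Fbn2 itself. Its genotype changes were between -0.54 for Metrnl and -0.14 for Dnajb6, against -2.24 for Fbn2 at 1454830_at. Its line differences were between -0.48 and -0.11 for the same genes, against -1.83 for Fbn2.

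Other genes of the elastic fibre pathway were described by 5 lists, with 1 probe set per gene. In GCN5-/- arrays, 4 of 16 tested microfibril-associated genes were lower and 0 higher (limma; 6 had an unadjusted p under 0.05), where 9.86% of all 12626 named genes were called in either direction. Their median log2 change was -0.10, against 0.01 over all named genes. The microfibril glycoprotein genes Mfap2 and Mfap5, whose products bind fibrillin, moved the most. Mfap2 had log2 signals of 11.05, 10.87 and 9.15 in the GCN5-/- arrays, against 12.04, 12.32 and 10.16 in the GCN5+/- arrays, and fell by 1.15 ± 0.10 (SE; limma adjusted p = 0.000843). Mfap5 had 8.86, 9.11 and 7.57, against 9.97, 10.33 and 8.15, and fell by 0.97 ± 0.16 (limma adjusted p = 0.0108). For both genes each GCN5-/- array was lower than its pair, and the line B arrays were the lowest of their genotype, as for Fbn2.

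Vcan, the proteoglycan versican, fell by 0.44 ± 0.09 (limma adjusted p = 0.0221) and lost the call in 8 of 15 alternative settings. Emilin1, an elastin-associated glycoprotein, fell by 0.34 ± 0.09 (limma adjusted p = 0.0499) and lost it in 10 of 15. Emilin2 had a change of 0.27 ± 0.07 and lay just outside the threshold (limma adjusted p = 0.0525). Mfap2 and Mfap5 lost their calls with line as a random block (adjusted p = 0.194 and 0.24) and without a line term (0.635 and 0.661). Mfap5 also lost its call without GCN5-/- A2 (limma adjusted p = 0.0521). The members of the list that were not called include Fn1 (0.03 ± 0.04), Hspg2 (-0.12 ± 0.11), Ltbp3 (0.05 ± 0.10) and Ltbp4 (-0.09 ± 0.10). Ltbp2 had differences of -0.62, -0.26 and 0.77 in pairs A1, A2 and B and was not called (-0.04 ± 0.23, limma adjusted p = 0.948).

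Among 10 tested cross-linking and maturation genes, 1 rose and 1 fell, with a median of -0.09. Over all named genes, 9.86% were called in either direction. The lysyl oxidase relative Loxl4 had log2 signals of 10.46, 10.48 and 10.75 in the GCN5-/- arrays, against 9.97, 9.91 and 10.10 in the GCN5+/- arrays. All GCN5-/- arrays lay above all GCN5+/- arrays, and it rose by 0.57 ± 0.08 (log2, SE; limma adjusted p = 0.00714). Serpinh1, a collagen chaperone, fell by 0.22 ± 0.04 (limma adjusted p = 0.0138) and lost the call in 7 of 15 alternative settings, among them line as a random block (adjusted p = 0.162). Loxl4 lost it in 2 of 15. Loxl1, a family member that like Lox acts on elastin, was not called (-0.10 ± 0.06, limma adjusted p = 0.348). Loxl3 had -0.38 ± 0.11 and was not called either (limma adjusted p = 0.0764).

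The counts of the remaining lists stand beside the same 9.86% of all named genes called in either direction. Of 5 elastolytic proteases, limma called 0, and 1 had an unadjusted p under 0.05, Mmp2 (-0.24 ± 0.06, limma adjusted p = 0.05005). Of 9 matrix receptor genes 1 fell, the integrin subunit gene Itgb5 (-0.36 ± 0.08, limma adjusted p = 0.0329), with a list median of -0.02. Of 6 genes of TGF-beta and its latency 2 fell, with a list median of 0.00. The ligand gene Tgfb3 fell by 0.79 ± 0.12 (limma adjusted p = 0.00751), with log2 signals of 9.84, 9.48 and 10.16 in the GCN5-/- arrays, against 10.51, 10.32 and 11.00 in the GCN5+/- arrays. Tgfb2 fell by 0.62 ± 0.14 (limma adjusted p = 0.0309). Tgfb1, with 0.14 ± 0.15, was not called (limma adjusted p = 0.639). Among alternative settings the call was lost in 8 of 15 for Itgb5, 7 for Tgfb2 and 2 for Tgfb3.

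**Figure D4:**
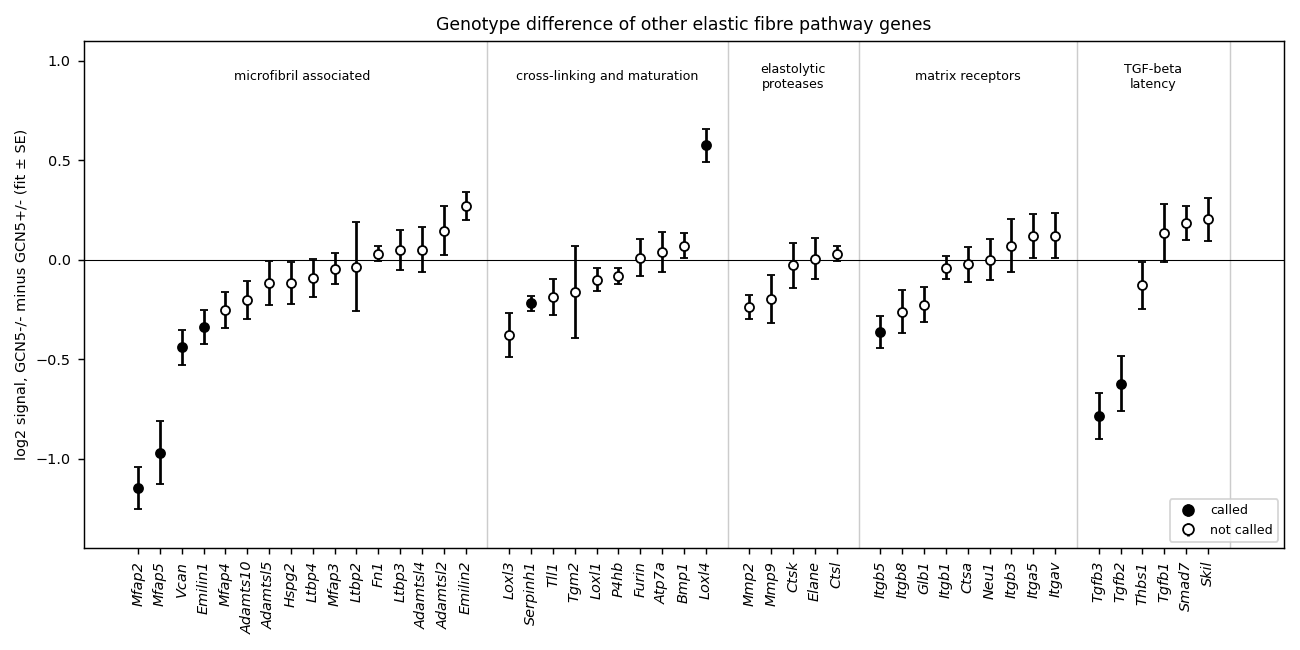
Difference in log2 signal, GCN5-/- minus GCN5+/- (vertical axis), of the tested genes in 5 lists around the elastic fibre (horizontal axis, 1 probe set per gene, ordered by value within a list). Points are the fit with its standard error, filled where the adjusted p was under 0.05; Mfap2 at -1.15 and Mfap5 at -0.97 lie lowest and Loxl4 at 0.57 highest.

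Between the lines, 3 of the 16 microfibril-associated genes were higher and 5 lower in line B, where 26.7% of all named genes were called in either direction. Mfap2 had a line difference of -1.92 ± 0.11, Mfap5 of -1.70 ± 0.17 and Ltbp2 of -1.34 ± 0.24 (log2, SE; limma adjusted p = 1.91e-05, 0.000305 and 0.00556). Emilin2 had -0.36 ± 0.07, Ltbp4 0.41 ± 0.10 and Mfap4 0.35 ± 0.09. Of the cross-linking list 1 of 10 was higher in line B, Loxl1 (0.22 ± 0.06), and 2 were lower, Serpinh1 (-0.29 ± 0.04) and the astacin protease gene Tll1 (-0.57 ± 0.09). Of the proteases Mmp2 was higher (0.48 ± 0.06), and Ctsk (-1.43 ± 0.12) and Mmp9 (-0.46 ± 0.13) were lower. Of 9 receptor genes 2 were higher and 3 lower, among them Itgb1 (0.47 ± 0.06) and Itgb8 (-0.74 ± 0.12). Of 6 TGF-beta and latency genes 3 were higher and 2 lower, among them Tgfb1 (0.70 ± 0.16) and Thbs1 (-1.09 ± 0.12), which encodes an activator of latent TGF-beta. Adjusted p-values of the differences named here ran up to 0.0382 for Loxl1. Among alternative settings the line call was lost in 8 of 12 for Loxl1, 6 of 11 for Mfap4, 4 of 12 for Ltbp4, 4 of 11 for Mmp9, 2 of 12 for Emilin2 and 1 of 12 for Tgfb1.

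Of 7 fibroblast markers, 4 were lower in GCN5-/- arrays (Col1a1, Col3a1, Pdgfra and Pdgfrb, with changes between -0.63 and -0.16) and 0 higher, beside 9.86% of all named genes called in either direction, and the linear signal summed over the 7 was 93617 to 100525 in GCN5-/- arrays and 100793 to 119443 in GCN5+/- arrays. Vim, Thy1 and Col1a2 were not called between the genotypes (limma adjusted p = 0.211, 0.335 and 0.055). Thy1 had a higher signal in line B but entered the test only through that line, so its line difference is a description with no test. Of the other fibroblast markers, Vim was higher in line B and 4 were lower, beside 26.7% of all named genes called in either direction. Among alternative settings the genotype call was lost in 12 of 15 for Col3a1, 9 for Pdgfra, 8 for Cnn1, 6 for Pdgfrb and 1 for Col1a1. Of 5 tested smooth muscle markers 1 was higher in GCN5-/- arrays, Cnn1 (0.46 ± 0.09), and 0 lower, with a list median of 0.00. Acta2 (-0.18 ± 0.06) and Tagln (-0.11 ± 0.04) moved the other way but missed the threshold (limma, 0.096 and 0.141 after adjustment). Des and Smtn changed by 0.05 ± 0.09 and 0.00 ± 0.09. The smooth muscle sums were 36280 to 41836 in GCN5-/- and 38802 to 45482 in GCN5+/- arrays. Myh11, the most specific smooth muscle marker listed, did not pass the level filter. The endothelial markers Pecam1, Cdh5, Tie1 and Tek and the macrophage markers Ptprc, Adgre1 and Itgam did not pass it either. The linear signal summed over the 5 macrophage markers was 716 to 1254 in GCN5-/- and 625 to 952 in GCN5+/- arrays. Between the genotypes limma called 0 of the 10 tested endothelial, macrophage, epithelial and chondrocyte markers. An unadjusted p under 0.05 was found for 3 of these 10, among them both tested macrophage markers (median change 0.37). Between the lines 3 of these 10 were called: Col2a1, a cartilage collagen gene, was lower in line B (-2.43 ± 0.35, limma adjusted p = 0.002), the macrophage receptor gene Csf1r was lower (-1.35 ± 0.13, limma adjusted p = 0.000248) and Cd68 was higher (0.91 ± 0.11, limma adjusted p = 0.000865). The smooth muscle markers Cnn1 and Smtn were higher in line B (0.67 ± 0.10 and 0.38 ± 0.10). The part of these markers in the results for the elastic fibre genes was not tested.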

How the data were processed

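The deposited table holds log2 signal per probe set for 6 arrays, 45101 probe sets with values between 3.13 and 15.2. The log2 unit was read from the values. MAS5 (all 6 samples) and Partek (1 sample) appear in the list of tools, per the submitters' processing notes, without a stated role, and how the authors normalized is not stated there. Array medians lay between 7.40 and 7.45; whether the authors scaled the arrays to each other is not known, and if they did, a shift shared by most genes would not be seen. Depth does not apply to arrays; their number limits the precision.

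The 64 control probe sets were left out. Symbols came from the platform annotation, updated by Entrez identifier through RefSeq (GRCm38.p6, names only): 34945 probe sets had 1 symbol, 932 several and 9160 none, and none with several was used. In R 4.3.3, limma 3.58.1 (lmFit, eBayes with trend) was fitted across all 27022 probe sets at or above the 40th percentile of mean log2 signal, with genotype and line as terms and Benjamini-Hochberg adjustment. The interaction and the effect within line A came from a fit with the product term. Probe sets below the filter were read from a fit over all 45037. Errors of changes are standard errors. The fit was tested on simulated data. The named genes were every member probe set, the Kat2a probe sets, up to 6 called genes per list and comparison, some uncalled ones for contrast chosen after their values were seen, and for Fbn2 (smallest genotype p) and Efemp1 (largest line difference) the 5 most correlated genes. Members and lists were chosen with earlier results of these data known. Replicate names pair the arrays by line; deviations from the group means correlated at 0.637, 0.657 and 0.804 in pairs A1, A2 and B. Alternatives were no or a stricter level filter, quantile normalization, robust variance moderation, no variance trend, no line term, line as a random block, the replicate block, averaged line A duplicates, the mean over a gene's probe sets, and leaving out each array in turn.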

Additional observations from a re-analysis of the deposited data

How the results depend on the processing

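The number of probe sets called between the genotypes, 2299 in the report, was 69 with no line term, 532 with line as a random block, 709 with averaged line A duplicates and 645 to 2309 with 1 array left out. The counts for the elastic fibre probe sets, 5 in the report, were 0, 2, 3 and 2 to 7 under the same settings, and 3 without the variance trend. The replicate block gave 2627 probe sets and 6 elastic fibre probe sets, the added one being 1419786_at of Ltbp1. Quantile normalization gave 2401 and 6. Line calls, 6246 in the report, were 3025 to 5379 with 1 array left out, lowest without the GCN5+/- array of line B. The 13 interaction calls became 27 with no level filter, 4 with a stricter filter, 4 after quantile normalization, 0 without the trend, and 55 to 104 with 1 array left out; among the elastic fibre probe sets there were 0 to 1, the 1 being 1448228_at of Lox without GCN5-/- A2 (limma adjusted p = 0.0340). Within line A, 984 probe sets and 2 elastic fibre probe sets were called without the trend, against 2322 and 7, and 4 to 6 elastic fibre probe sets with 1 array left out. The cause of these changes was not tested.

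Signs changed only at values that were not called, with 1 array left out. Between the genotypes these ran between -0.13 and 0.016 at 1439688_at of Fbln1, -0.18 and 0.012 at 1451119_a_at of Fbln1, -0.11 and 0.010 at 1423407_a_at of Fbln2, and -0.094 and 0.076 at 1446377_at of Fbln5. Between the lines they ran between -0.11 and 0.13 at 1439688_at, -0.14 and 0.17 at 1446377_at, and -0.0073 and 0.035 at 1448870_at of Ltbp1. The interaction ran between -0.38 and 0.17 at 1422831_at of Fbn2, -0.11 and 0.061 at 1420855_at of Eln, and -0.24 and 0.11 at 1447547_at of Ltbp1, and the change within line A between -0.15 and 0.013 at 1420855_at.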
